A study of Rattus norvegicus with 12 samples.

Results

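The members were the chemokine and chemokine receptor genes of rat lung, picked by gene symbol and counts with earlier results of these data known. Of 32883 genes in the count table, 55 had a symbol beginning with Ccl, Cxcl, Cx3cl, Xcl, Ccr, Cxcr, Cx3cr, Xcr or Ackr and a digit. Of these, 48 had at least 10 counts in 4 or more of the 12 libraries, and 47 are described here, 30 of them ligands, 14 signalling receptors and 3 atypical receptors. Those left out for low counts were Ccl1, Ccl25, Ccl26, Ccl28, Ccr1l1, Ccr8 and Ccr10, and they held at most 19 counts in any library. No gene carried the symbols Ccr2 (the main monocyte receptor) or Ackr1, and they were not analysed here.

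Chemokines are small secreted proteins that draw white blood cells along a gradient. They are named CC, CXC, CX3C or C by the spacing of their first cysteines, and they act through G protein-coupled receptors with matching names. A further set, the atypical receptors (Ackr), binds chemokines and removes or carries them without G protein signalling. In the lung they guide neutrophils, monocytes, dendritic cells and lymphocytes out of the blood and on to lymphatic vessels, and monocyte and macrophage recruitment is a known feature of pulmonary hypertension.

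Whole-lung RNA of rats labelled wild type was sequenced, with 4 libraries in each of 3 groups, and every sample carries a time of 25 days. Control rats were labelled as control. MCT-vehicle rats had monocrotaline, a plant alkaloid that injures lung vessels and models pulmonary hypertension, and then the vehicle of ferrostatin-1 for 10 days. MCT-Fer-1 rats had monocrotaline and then ferrostatin-1, an inhibitor of the lipid peroxidation death called ferroptosis, for the same 10 days. No vehicle is stated for Control, so monocrotaline and vehicle cannot be told apart against Control. The sources used here give no sex, age or strain and do not say whether each library came from its own rat, so the p-values rest on the spread among these libraries, which may be technical.

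Library totals ran from 11601929 counts (MCT-Fer-1 1) to 70627239 counts (MCT-Fer-1 4), so 3 counts, taken as the floor, stood for 0.042 to 0.259 CPM (counts scaled to library size). This covers counting error only. Surfactant and other type 2 cell markers summed to 19840 CPM or more in every library, as fits whole lung, and none of 7 was called in any comparison. Heart muscle markers were high in MCT-vehicle 2 (443 CPM) and Control 4 (288 CPM) against at most 83.2 CPM elsewhere. MCT-vehicle 2 also stood apart in follicular lymphoid markers, with values given beside Ccl19 and Cxcl13. The number of members called against Control is therefore also given without these 2 libraries, while counts by role and over marker lists include them. Whole lung is a mixture, and more cells of a type cannot be told apart from more RNA per cell.

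The first question was which chemokine genes differed in lungs of monocrotaline rats given vehicle. The CCR1 ligands Ccl9 and Ccl6, the CXCR3 ligands Cxcl9 and Cxcl10 and the lymphatic ligand Ccl21 were among the genes that rose in MCT-vehicle. The receptors Xcr1 and Cxcr3 also rose, while the scavenging receptor Ackr4 and the ligands Ccl5 and Cx3cl1 fell. Of the 47 members, all tested, 16 rose (34.0%) and 3 fell (6.38%) at an adjusted p below 0.05, against 10.3% and 8.28% of the 15257 genes tested (quasi-likelihood test of edgeR, Benjamini-Hochberg adjusted). Of the 4 neutrophil ligands Cxcl3 and Cxcl6 rose, and of the 3 ligands of the monocyte receptor CCR2 only Ccl12 did. The median log2 fold change was 0.70 over the members and 0.02 over all genes tested. The 4 values of each group did not overlap in 42.6% of members, against 21.5% of all genes. The members' share of all counts was 0.229 ± 0.0083% for Control, 0.330 ± 0.0165% for MCT-vehicle and 0.314 ± 0.0312% for MCT-Fer-1 (SD, 4 libraries each). Much of this share lay in Cxcl3, Ccl6 and Ccl21, with means of 571, 569 and 89.4 CPM in Control and 998, 795 and 315 CPM in MCT-vehicle.

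By role, 7 of 16 CC ligands rose and 1 fell, 5 of 12 CXC ligands rose and 0 fell, 1 of 6 CXC receptors rose and 0 fell, and 1 of 3 atypical receptors rose and 1 fell. None of the 6 CC receptors described was called by edgeR, and 0 had an unadjusted p below 0.05. The number of calls depended on the libraries. It was 19 with all libraries, when 18.6% of all genes were called. It was 12 without Control 2 (13.9% of all genes), 9 without Control 3 (13.2%) and 10 without Control 4 (13.1%). Without both MCT-vehicle 2 and Control 4 it was 8, when 10.9% of all genes were called. These 8 were Ackr4, Ccl9, Ccl21, Cxcl3, Cxcl10, Cxcr3, Xcr1 and Ccl11, the last of which had no call with all libraries. The calls of Ackr4, Ccl9, Ccl21, Cxcl3, Cxcl10 and Xcr1 were kept under all 22 alternatives tried.

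**Figure D1:**
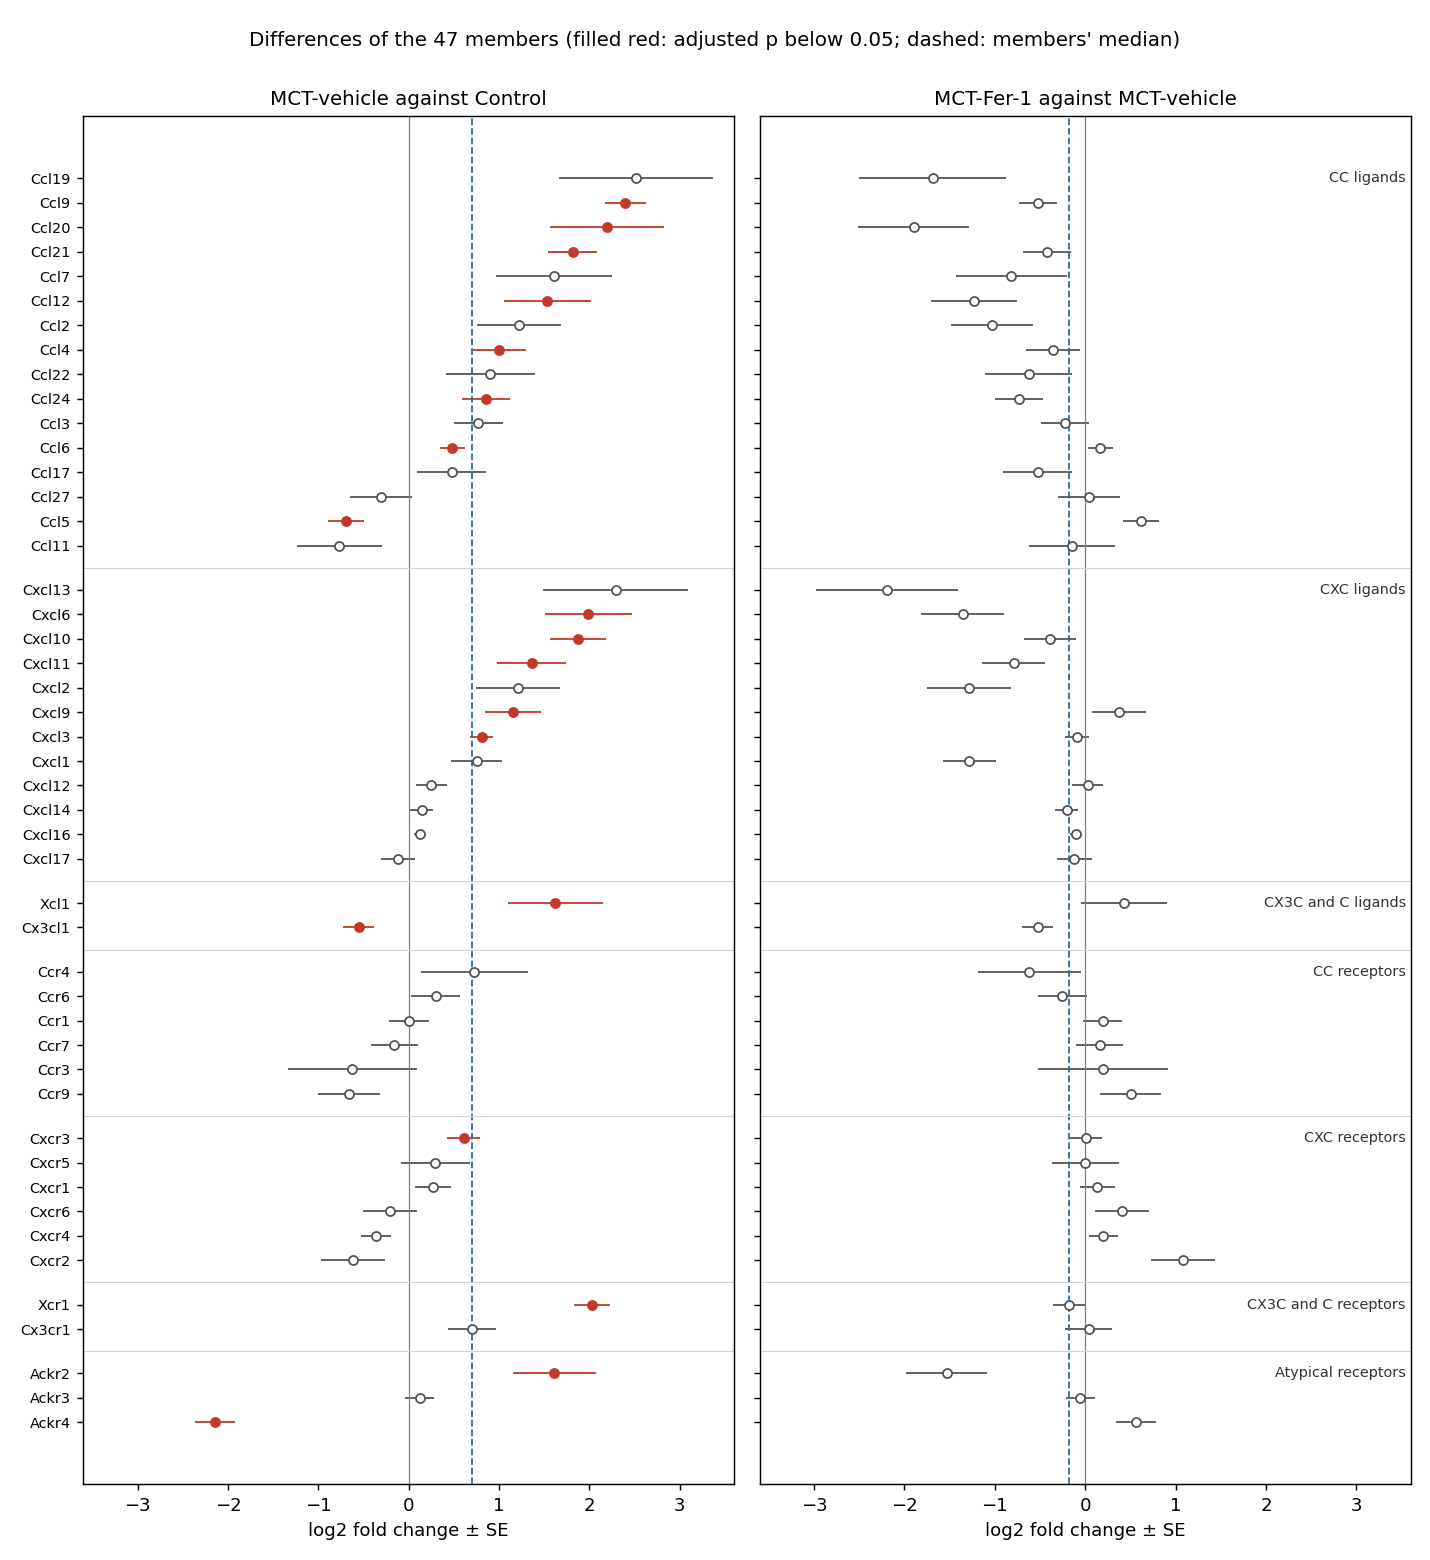
Log2 fold change (x axis, bars are standard errors) of each of the 47 members in MCT-vehicle against Control (left) and MCT-Fer-1 against MCT-vehicle (right), grouped by role. Filled red points have an adjusted p below 0.05, 19 on the left and 0 on the right, and the dashed line is the members' median (0.70 and -0.17).

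Of the CC ligands of macrophages and monocytes, Ccl9 rose most and kept its call under every alternative tried, while Ccl6 and Ccl4 did not keep theirs. Ccl9 (ENSRNOG00000028548), a rodent ligand of CCR1, stood at 19.9, 24.8, 18.4 and 14.8 CPM in Control, at 102, 121, 103 and 84.1 CPM in MCT-vehicle, and at 58.3, 79.8, 99.4 and 49.4 CPM in MCT-Fer-1. Every monocrotaline library lay above every control, and the log2 fold change was 2.40 ± 0.22 (SE) in MCT-vehicle against Control (edgeR adjusted p = 5.54e-05). Ccl6 (ENSRNOG00000030021), another rodent ligand of CCR1, rose from 532 to 611 CPM in Control to 716 to 896 CPM in MCT-vehicle, with no overlap (log2 fold change 0.48 ± 0.14, edgeR adjusted p = 0.0287). In MCT-Fer-1 Ccl6 spread from 681 to 1140 CPM. Ccl4, which attracts macrophages and T cells, rose from 4.59 ± 1.57 to 9.13 ± 2.79 CPM (SD over 4 libraries each; log2 fold change 0.99 ± 0.31, edgeR adjusted p = 0.0404). Ccl3, a ligand of CCR1, gave 0.77 ± 0.27 without a call (edgeR adjusted p = 0.0642). Leaving out Control 1, Control 3, Control 4, MCT-vehicle 1 or MCT-vehicle 3 ended the call of Ccl6 (edgeR adjusted p 0.0536 to 0.0805), and leaving out Control 2, Control 4, MCT-vehicle 1 or MCT-vehicle 4 ended that of Ccl4 (0.0915 to 0.102).

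Ccl5 (ENSRNOG00000010906), a T cell and NK cell product, went the other way. It stood at 59.7, 61.5, 98.2 and 62.6 CPM in Control and at 48.6, 27.8, 42.7 and 55.2 CPM in MCT-vehicle, so that every MCT-vehicle value was below every control. The log2 fold change was -0.69 ± 0.20 (edgeR adjusted p = 0.0298), and the call was lost without Control 3 (0.0847) and without MCT-vehicle 3 (0.0616). In MCT-Fer-1 the 4 values were 70.8, 63.6, 68.3 and 63.8 CPM, all above MCT-vehicle and within the control range. T and NK cell markers, 13 tested, gave 0 calls in each comparison and summed to 229 to 293 CPM in Control, 205 to 253 CPM in MCT-vehicle and 211 to 311 CPM in MCT-Fer-1, and their part in the values of Ccl5 was not tested.

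Ccr1, a receptor of neutrophils and monocytes for these ligands, did not pass the test. It stood at 0.00 ± 0.22 on the log2 scale (edgeR adjusted p = 1.00), with 13.3 to 23.6 CPM in MCT-vehicle around a control mean of 16.5 CPM. Markers moved beside these genes: 7 of 10 interstitial macrophage markers rose and 1 fell, with summed levels of 1478 to 1811 CPM in Control, 1944 to 3373 CPM in MCT-vehicle and 1805 to 2078 CPM in MCT-Fer-1. Alveolar macrophage markers had 3 of 6 up and 0 down, with sums of 428 to 517 CPM, 590 to 949 CPM and 637 to 710 CPM in that order. The part of macrophage number in the rise of Ccl9 and Ccl6 was not tested.

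Ligands of the monocyte receptor CCR2 varied widely among MCT-vehicle libraries. Ccl12 (ENSRNOG00000029768) was at 2.20, 2.44, 1.93 and 1.66 CPM in Control and at 2.99, 5.08, 3.65 and 12.1 CPM in MCT-vehicle, with MCT-vehicle 4 highest. Its log2 fold change of 1.53 ± 0.48 was called (edgeR adjusted p = 0.0439), but not when any of Control 1 to 4, MCT-vehicle 2 or 4, or MCT-Fer-1 2 or 4 was left out (0.0503 to 0.150). Ccl2, the main monocyte attractant, stood at 22.6, 38.2, 21.2 and 54.7 CPM in MCT-vehicle against 9.58 to 23.3 CPM in Control, with overlap and no call (log2 fold change 1.22 ± 0.46, edgeR adjusted p = 0.0921). Ccl7 showed the same order of libraries, at 8.46, 20.05, 7.98 and 23.5 CPM in MCT-vehicle against 3.54 to 6.43 CPM in Control, without overlap and without a call (1.61 ± 0.64, edgeR adjusted p = 0.107). MCT-vehicle 2 and 4 were thus the 2 highest of their group for all 3 of these ligands. Monocyte markers had 4 of 9 up and 1 down, and summed to 936 to 1331 CPM in Control and 2786 to 3772 CPM in MCT-vehicle, a sum to which fibronectin (Fn1) alone gave 2456 ± 336 CPM (SD, n = 4).

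**Figure D2:**
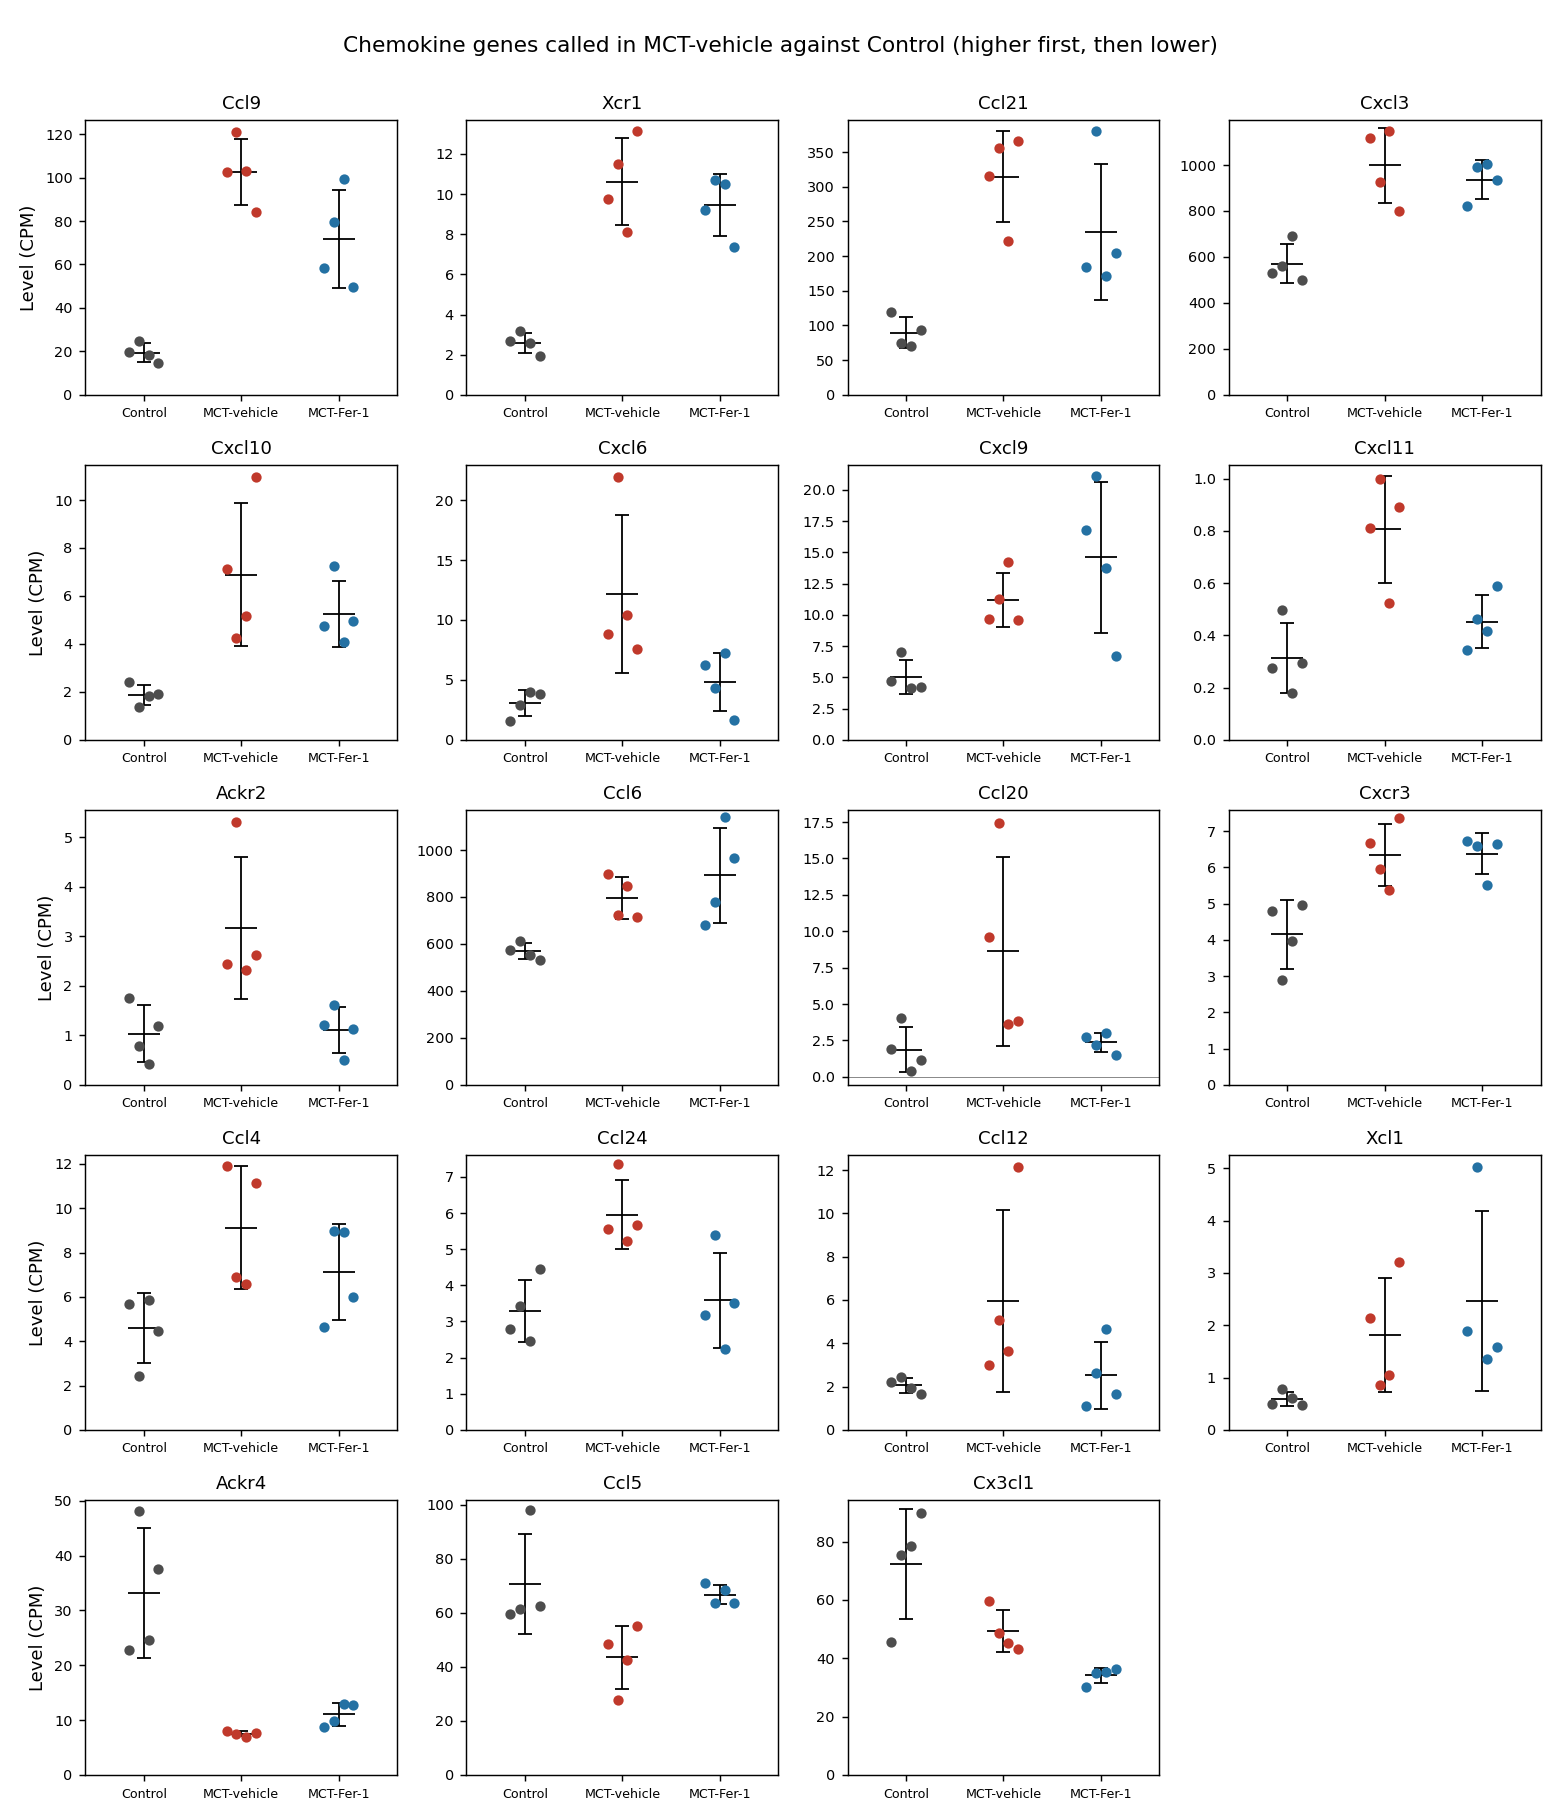
Level in CPM (y axis, from 0) of the 19 members called in MCT-vehicle against Control, in Control (grey), MCT-vehicle (red) and MCT-Fer-1 (blue). Each point is a library and the bars are mean ± SD (n = 4). Ccl9 and Xcr1 show monocrotaline groups far above Control, while Ackr4 lies between 6.86 and 12.9 CPM in both monocrotaline groups and at 22.8 CPM or more in Control.

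Among CXC ligands, those that attract neutrophils through CXCR1 and CXCR2 split in size and certainty. Cxcl3 (ENSRNOG00000028043) stood at 532, 562, 690.0 and 498 CPM in Control, at 1119, 927, 1147 and 801 CPM in MCT-vehicle and at 821, 990.3, 1004 and 933 CPM in MCT-Fer-1. Both monocrotaline groups lay above all controls, with a log2 fold change of 0.81 ± 0.13 in MCT-vehicle (edgeR adjusted p = 0.00122). Cxcl6 (ENSRNOG00000002843) rose from 1.54, 2.93, 3.98 and 3.85 CPM to 8.80, 21.9, 10.4 and 7.56 CPM, again without overlap (log2 fold change 1.99 ± 0.48, edgeR adjusted p = 0.0125). Without MCT-vehicle 2 and Control 4 together it was no longer called (edgeR adjusted p = 0.0560). Cxcl1 gave 0.75 ± 0.29 and Cxcl2 1.21 ± 0.47 without a call (edgeR adjusted p = 0.0909 and 0.0923). Cxcl1, Cxcl2 and Cxcl3 are close copies of each other, and reads could have been split among them. Neither receptor was called: Cxcr1 gave 0.27 ± 0.20, and Cxcr2 gave -0.62 ± 0.36 although its 4 MCT-vehicle values, 2.39 to 5.15 CPM, all lay below the controls, 5.21 to 7.53 CPM. Among 11 neutrophil markers 1 rose, the iron-binding lipocalin gene Lcn2, which epithelium also makes, and 1 fell, the granule peptide gene Camp. Their median log2 fold change was -0.64, whereas their summed level was higher. The sum ran from 482 to 680.5 CPM in Control, 669 to 1714 CPM in MCT-vehicle and 766 to 2125 CPM in MCT-Fer-1.

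The ligands of CXCR3, which are induced by interferon and attract activated T cells, rose together with their receptor. All 4 genes of this axis were called upward in MCT-vehicle, though Cxcl11 met the count rule only through monocrotaline libraries. Cxcl10 (ENSRNOG00000022256) went from 2.42, 1.38, 1.81 and 1.89 CPM to 7.14, 4.26, 5.15 and 10.98 CPM (log2 fold change 1.87 ± 0.31, edgeR adjusted p = 0.00147). Cxcl9 (ENSRNOG00000022242) went from 4.67, 7.03, 4.16 and 4.20 CPM to 9.70, 11.2, 14.2 and 9.61 CPM (1.15 ± 0.31, edgeR adjusted p = 0.0208). Neither gene's groups overlapped. Cxcl11 rose from 0.312 ± 0.134 to 0.806 ± 0.204 CPM (SD over 4 libraries each, log2 fold change 1.36 ± 0.38, edgeR adjusted p = 0.0246). Its control values, from 0.181 CPM, lay near the floor and the size is uncertain. The 6 libraries with at least 10 counts of Cxcl11 were all monocrotaline libraries, with 5, 9, 3 and 5 counts in Control, so its call adds little support. Cxcr3 (ENSRNOG00000003305) rose from 2.88 to 4.97 CPM in Control to 5.37 to 7.35 CPM (0.61 ± 0.18, edgeR adjusted p = 0.0351), while T and NK cell markers gave no call. The call of Cxcl9 was lost without Control 3, Control 4 or MCT-vehicle 3 (0.0514 to 0.0631), without both MCT-vehicle 2 and Control 4 (0.0999) and with limma voom (0.110). The call of Cxcl11 was lost without Control 1, 3 or 4 or MCT-vehicle 2 or 4 (0.0563 to 0.0766). That of Cxcr3 was lost without Control 2 or 3, MCT-vehicle 1 or 4, or MCT-Fer-1 4 (0.0509 to 0.0898).

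Genes of 8 CXC ligands lie on chromosome 14 in RefSeq's rat annotation. The bases before 6 of them, the CXCR2 and CXCR3 ligands with a sequence, and before Ccl20 are shown because each holds the letters that NF-kappaB, an inducer of many chemokines, is known to bind. RefSeq sequences of build GRCr8 matched 37 of the 47 members by symbol, without Cxcl3, and the build behind the counts is not given in the sources used here. The letters GGNNTTTCC, the core of a kappaB site, were searched on both strands in the 250 bases before the start. They occurred before 9 of the 37 members (24.3%) and before 5.19% of all 33469 promoters. The letters GAAANNGAA, the core of an interferon response element, occurred before Ccl19 and Cxcl10 only (5.41%, against 8.12% of all). The 200 bases before the start follow, 5′ to 3′ on the gene's strand, with matches to the kappaB letters in capitals.
Cxcl1, chr14:17479322-17479521, minus strand: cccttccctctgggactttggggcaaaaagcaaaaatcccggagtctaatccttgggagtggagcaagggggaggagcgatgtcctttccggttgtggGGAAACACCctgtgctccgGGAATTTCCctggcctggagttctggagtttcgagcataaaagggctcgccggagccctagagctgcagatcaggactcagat
Cxcl2, chr14:17467256-17467455, minus strand: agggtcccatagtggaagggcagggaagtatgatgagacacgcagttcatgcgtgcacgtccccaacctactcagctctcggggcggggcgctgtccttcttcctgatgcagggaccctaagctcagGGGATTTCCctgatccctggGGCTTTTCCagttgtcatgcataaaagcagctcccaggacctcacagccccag
Cxcl6, chr14:17596418-17596617, minus strand: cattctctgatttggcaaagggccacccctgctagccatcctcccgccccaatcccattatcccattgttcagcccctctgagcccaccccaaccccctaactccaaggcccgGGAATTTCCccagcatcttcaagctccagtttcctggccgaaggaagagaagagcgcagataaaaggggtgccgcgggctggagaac
Ccl20, chr9:91836959-91837158, plus strand: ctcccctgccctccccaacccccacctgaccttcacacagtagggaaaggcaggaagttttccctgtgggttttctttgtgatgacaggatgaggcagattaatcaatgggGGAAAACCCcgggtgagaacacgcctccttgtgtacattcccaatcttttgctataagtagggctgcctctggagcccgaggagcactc
Cxcl9, chr14:16006966-16007165, plus strand: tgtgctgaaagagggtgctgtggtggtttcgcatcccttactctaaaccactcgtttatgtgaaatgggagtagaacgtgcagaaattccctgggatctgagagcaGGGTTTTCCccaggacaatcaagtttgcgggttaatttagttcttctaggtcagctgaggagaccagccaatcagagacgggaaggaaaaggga
Cxcl10, chr14:15988866-15989065, plus strand: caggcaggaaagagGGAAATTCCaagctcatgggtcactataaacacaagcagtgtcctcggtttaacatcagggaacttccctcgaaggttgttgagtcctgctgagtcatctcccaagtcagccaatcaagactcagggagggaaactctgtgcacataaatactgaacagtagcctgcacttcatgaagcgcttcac
Cxcl11, chr14:15973528-15973727, plus strand: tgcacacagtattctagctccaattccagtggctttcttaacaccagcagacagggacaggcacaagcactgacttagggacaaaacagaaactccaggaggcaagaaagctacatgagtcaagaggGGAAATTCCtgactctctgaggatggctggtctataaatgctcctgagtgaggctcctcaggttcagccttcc

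The same letters GGAATTTCC stand 83 to 75 bases before the start of Cxcl1 and 87 to 79 bases before that of Cxcl6, and Cxcl2 has matches at 73 to 65 and at 53 to 45 bases before its start. The other 2 members with a match were Ccl9 and Ccr3. A match is a run of letters and does not show that a factor bound there. Of 15 genes of the NF-kappaB system itself, 1 rose in MCT-vehicle, the nuclear co-factor gene Bcl3 (log2 fold change 0.98 ± 0.27, edgeR adjusted p = 0.0236), and 1 fell, the subunit gene Rela (-0.20 ± 0.06, edgeR adjusted p = 0.0475). Their median log2 fold change was -0.0037.

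The lymphoid axis of CCR7 held a ligand that rose beside a scavenger that fell. Ccl21 (ENSRNOG00000034290), which lymphatic endothelium displays to draw in dendritic cells, was at 119, 74.7, 70.7 and 92.9 CPM in Control, at 316, 356, 221 and 366 CPM in MCT-vehicle and at 185, 380.0, 171 and 204 CPM in MCT-Fer-1. Both monocrotaline groups stood above Control without overlap, and the log2 fold change in MCT-vehicle was 1.82 ± 0.27 (edgeR adjusted p = 0.00109). Ackr4 (ENSRNOG00000011478), the atypical receptor that takes up CCL19, CCL21 and CCL25, was at 22.8, 48.1, 24.6 and 37.5 CPM in Control but at 8.08, 7.53, 6.86 and 7.56 CPM in MCT-vehicle. The log2 fold change, the lowest of the 47, was -2.14 ± 0.23 (edgeR adjusted p = 8.94e-05). Ccr7, the receptor, had no call (-0.16 ± 0.26, edgeR adjusted p = 0.721). Among 6 lymphatic markers other than Ccl21, 3 rose and 1 fell. Prox1, the transcription factor of lymphatic identity, rose by 1.34 ± 0.26 on the log2 scale, Mmrn1 by 1.28 ± 0.23 and Reln by 0.96 ± 0.26, while Lyve1, also made by macrophages, had a log2 fold change of -1.09 ± 0.12. The summed markers ran from 1099 to 1202 CPM in Control and from 956 to 1150 CPM in MCT-vehicle, and their part in the values of Ccl21 was not tested.

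Ccl19, the other CCR7 ligand, and Cxcl13, which draws B cells through CXCR5, were high in 1 library. In MCT-vehicle 2 Ccl19 read 39.5 CPM against 3.41 to 3.73 CPM in the other libraries of its group, and Cxcl13 read 21.4 CPM against 2.73 to 2.78 CPM. Neither was called in MCT-vehicle against Control, with log2 fold changes of 2.51 ± 0.86 and 2.29 ± 0.80 (edgeR adjusted p = 0.0624 and 0.0676). Without MCT-vehicle 2 these values were 0.70 ± 0.45 and 0.86 ± 0.54 (edgeR adjusted p = 0.323 and 0.315). The same library read 46.9 CPM for the follicular dendritic and B cell receptor gene Cr2 and 53.9 CPM for Glycam1, a product of lymph node venules, against at most 22.6 and 6.16 CPM in any other library. Follicular lymphoid markers without Cxcl13 summed to 113 CPM in MCT-vehicle 2 and elsewhere to between 16.7 and 44.9 CPM, with Fdcsp at 0 throughout and 0 of 5 called. Lymphoid tissue in this lung piece as the source was not tested. Cxcr5 gave no call (0.30 ± 0.38), and of 8 B and plasma cell markers 1 rose and 0 fell.

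**Figure D3:**
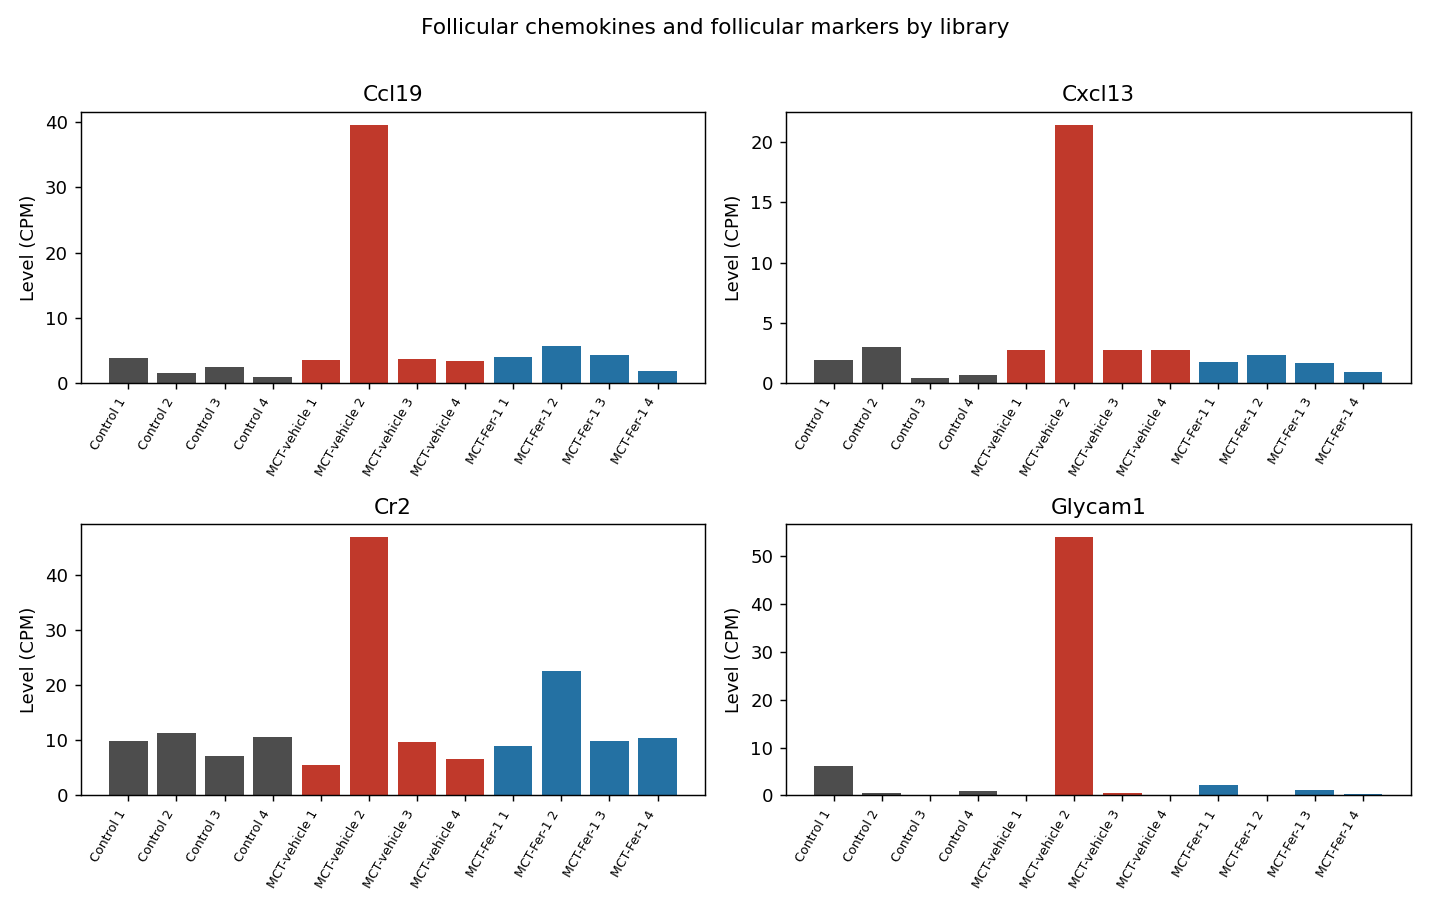
Level in CPM (y axis, from 0) of Ccl19, Cxcl13 and the lymphoid markers Cr2 and Glycam1 in each of the 12 libraries (bars; grey Control, red MCT-vehicle, blue MCT-Fer-1). MCT-vehicle 2 is highest in all 4 panels, at 39.5, 21.4, 46.9 and 53.9 CPM.

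The C chemokine and its receptor both rose. Xcr1 (ENSRNOG00000006620) marks the dendritic cells that present antigen to CD8+ T cells. It read 2.69, 3.16, 2.59 and 1.95 CPM in Control, 9.74, 11.5, 8.13 and 13.1 CPM in MCT-vehicle and 9.22, 10.7, 10.5 and 7.34 CPM in MCT-Fer-1, with no overlap of either monocrotaline group with Control. The log2 fold change in MCT-vehicle was 2.03 ± 0.20 (edgeR adjusted p = 5.54e-05). Of 9 other dendritic cell markers 3 rose and 0 fell, led by Clec9a, a receptor of the same cells (1.87 ± 0.17), and their summed level was 107 to 152 CPM in Control, 184 to 220.3 CPM in MCT-vehicle and 162 to 204 CPM in MCT-Fer-1. Whether there were more such cells was not tested. Xcl1 (ENSRNOG00000002964), made by NK cells and CD8+ T cells, rose from 0.474 to 0.775 CPM in Control to 0.862 to 3.20 CPM in MCT-vehicle (1.62 ± 0.53, edgeR adjusted p = 0.0491). Its counts were few, and the call was lost without any of Control 1 to 4, MCT-vehicle 1 or 4, or MCT-Fer-1 1 or 4 (0.0535 to 0.144).

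Cx3cl1 (ENSRNOG00000016326), a membrane-bound ligand of endothelium and epithelium that holds monocytes, was at 45.5, 75.4, 78.4 and 89.7 CPM in Control, at 59.4, 48.6, 45.3 and 43.2 CPM in MCT-vehicle and at 30.1, 34.9, 35.1 and 36.1 CPM in MCT-Fer-1. MCT-Fer-1 was lowest, with every value below both other groups, while Control 1 lay among the MCT-vehicle values. The fall in MCT-vehicle was -0.55 ± 0.17 on the log2 scale (edgeR adjusted p = 0.0413), and it was not called without any of Control 2 to 4, MCT-vehicle 2 to 4 or MCT-Fer-1 2 to 4 (0.0509 to 0.121). Its receptor gene Cx3cr1 had 8.58 ± 2.37 CPM in Control and 13.97 ± 4.13 CPM in MCT-vehicle (SD, n = 4 per group) with no call (0.70 ± 0.26, edgeR adjusted p = 0.0818). Endothelial markers, 7 tested, had 1 up and 2 down in MCT-vehicle, and summed to 3679 to 3986 CPM in Control, 2439 to 3044 CPM in MCT-vehicle and 2723 to 3907 CPM in MCT-Fer-1. Their part in the level of Cx3cl1 was not tested.

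Single ligands and a scavenger outside these axes also rose. Ccl20 (ENSRNOG00000015992), the only chemokine ligand of CCR6, read 1.92, 4.04, 0.422 and 1.12 CPM in Control and 9.57, 17.5, 3.65 and 3.83 CPM in MCT-vehicle. The groups overlapped only through Control 2 (log2 fold change 2.20 ± 0.63, edgeR adjusted p = 0.0303). Ccr6 had 0.30 ± 0.27 and no call. Ccl24, a ligand of the eosinophil receptor CCR3, rose from 3.29 ± 0.866 to 5.95 ± 0.952 CPM (SD over 4 libraries each; 0.86 ± 0.27, edgeR adjusted p = 0.0407). Ackr2 (ENSRNOG00000019472), which degrades inflammatory CC chemokines, read 1.76, 0.775, 0.422 and 1.18 CPM in Control and 2.44, 5.31, 2.31 and 2.63 CPM in MCT-vehicle (1.61 ± 0.46, edgeR adjusted p = 0.0267), without overlap. These calls were fragile. That of Ccl20 was lost without Control 1, 3 or 4 or MCT-vehicle 1 or 2 (0.0569 to 0.0857), and that of Ackr2 without Control 2, 3 or 4 or MCT-vehicle 2 (0.0565 to 0.0835). Ccl24 lost its call without Control 1 to 3, any MCT-vehicle library or MCT-Fer-1 4 (0.05003 to 0.114).

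The eosinophil axis did not move as 1. Ccr3 gave -0.62 ± 0.72 and Ccl11 -0.77 ± 0.47, neither called. Ccl11, the eotaxin, read 14.3, 53.3, 19.8 and 12.4 CPM in MCT-vehicle against 23.5 to 72.5 CPM in Control, and without MCT-vehicle 2 its log2 fold change was -1.47 ± 0.36 with a call (edgeR adjusted p = 0.0212). Of 4 eosinophil markers other than Ccr3, 3 fell, the granule protein genes Epx, Prg2 and Prg3, and their list summed to 6.09 to 29.5 CPM in Control and 0.427 to 4.10 CPM in MCT-vehicle.

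The remaining members had no call in any comparison in the edgeR fit of all 12 libraries. A fit of only the 2 groups compared called Cxcr4 and Ccl7 in MCT-vehicle against Control. In the same comparison Ccl19 was called without MCT-vehicle 1, 3 or 4, and Ccl3, Cxcl1 and Cxcl2 without MCT-vehicle 3. Cx3cr1 was called there without Control 3 or MCT-vehicle 1, and Cxcl13 with the replicate number as a block. Leaving out MCT-Fer-1 4 gave a call of Cxcl12 in MCT-Fer-1 against Control. Ccl17 and Ccl22, the ligands of CCR4, had log2 fold changes of 0.48 ± 0.38 and 0.91 ± 0.49 in MCT-vehicle, and Ccr4 0.73 ± 0.59 at 0.220 to 1.68 CPM. Ccr9, a gut homing receptor, had -0.66 ± 0.34 and Ccl27, a skin chemokine, -0.30 ± 0.35. Cxcl12, the stromal ligand that retains progenitors and lymphocytes, had 0.25 ± 0.17, its scavenger Ackr3 0.12 ± 0.16 and its signalling receptor Cxcr4 -0.36 ± 0.16. Cxcr4 stood at 55.5 to 68.0 CPM in MCT-vehicle, below all 4 controls (71.0 to 83.1 CPM), without passing the adjusted test (edgeR adjusted p = 0.149). The epithelial and stromal ligands Cxcl14, Cxcl16 and Cxcl17 lay between -0.11 and 0.15, and Cxcr6, the receptor of CXCL16, had -0.21 ± 0.30.

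Chemokine-related genes outside the name rule changed in both directions in MCT-vehicle, with 3 of 9 up and 3 down. Dpp4, a protease that trims chemokines, had a log2 fold change of -0.98 ± 0.09 and the chemerin-binding receptor gene Ccrl2 one of -0.78 ± 0.16. The platelet chemokine gene Pf4 rose by 0.69 ± 0.14 and Cmtm7 by 0.60 ± 0.11. Platelet markers had 1 of 6 up, which was Pf4 itself, and 0 down. Of 39 genes that carry the signal from chemokine receptors, 8 rose and 3 fell, with a median of -0.03. Fermt3, which activates integrins, rose by 0.66 ± 0.12, the Rac activator gene Tiam1 by 1.35 ± 0.29, the arrestin gene Arrb2 by 0.42 ± 0.09 and the kinase gene Lyn by 0.33 ± 0.07. For these 8 genes edgeR gave adjusted p from 4.60e-05 (Dpp4) to 0.00837 (Lyn). Mast cell markers had 8 of 9 up and 1 down and fat markers 2 of 4 up.

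The second question was how ferrostatin-1 altered these genes in monocrotaline rats. With edgeR no member was called between MCT-Fer-1 and MCT-vehicle. Cxcl1 had the lowest adjusted p, 0.168, and the percentage called was 0.00% upward and 0.00% downward over all 15257 genes. DESeq2 called 1 member, Cxcl1, and 1.60% of all genes, and limma voom called 0. At an unadjusted p below 0.05 there were 15 of the 47 members. Of the 47, 3 were higher in MCT-Fer-1, against 5.85% of all genes, and 12 were lower, against 6.17% of all genes. Without MCT-vehicle 2, Ccl2, Ccl9, Cxcl6, Cxcl11 and Cxcl13 were no longer among the lower ones (edgeR unadjusted p 0.0559 to 0.184). Ccr9 then joined the higher ones (0.0222), and the share over all genes is not given for that fit. With all libraries the members' median log2 fold change was -0.17, against -0.01 over all genes. The 4 values of each group did not overlap in 8 members (17.0%, against 6.10% of all genes). The values below are therefore given without a call.

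The neutrophil ligand Cxcl1 had the smallest p. Cxcl1 (ENSRNOG00000002802) read 67.8, 39.7, 26.6 and 44.9 CPM in MCT-vehicle and 20.3, 12.5, 25.3 and 16.0 CPM in MCT-Fer-1, beside 31.6, 32.1, 24.0 and 18.8 CPM in Control. All MCT-Fer-1 values lay below all MCT-vehicle values, though MCT-vehicle 3 exceeded MCT-Fer-1 3 only narrowly. The log2 fold change was -1.28 ± 0.29 (edgeR adjusted p = 0.168, DESeq2 adjusted p = 0.00163). Cxcl6 stood at 6.21, 4.29, 7.22 and 1.69 CPM in MCT-Fer-1, each below the lowest MCT-vehicle value of 7.56 CPM (-1.36 ± 0.46, edgeR adjusted p = 0.288). Cxcl2 gave -1.28 ± 0.46 (edgeR adjusted p = 0.312) with overlapping groups, while Cxcl3, a close copy on the same chromosome, gave -0.09 ± 0.13. Without MCT-vehicle 2, Cxcl1 gave -1.34 ± 0.32 and Cxcl6 -0.90 ± 0.43.

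Their receptor Cxcr2 had the opposite sign. It read 6.29, 16.0, 8.21 and 4.46 CPM in MCT-Fer-1 against 2.39, 4.67, 4.33 and 5.15 CPM in MCT-vehicle (log2 fold change 1.08 ± 0.35, edgeR adjusted p = 0.279), with MCT-Fer-1 2 highest and MCT-Fer-1 4 inside the MCT-vehicle range. Cxcr1 gave 0.13 ± 0.20. The median of the 11 neutrophil markers was 0.27, and 0 of them were called. Bcl3, the NF-kappaB co-factor gene, had -1.44 ± 0.27 (edgeR adjusted p = 0.114), the largest difference of its 15-gene list, of which the median was -0.07.

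**Figure D4:**
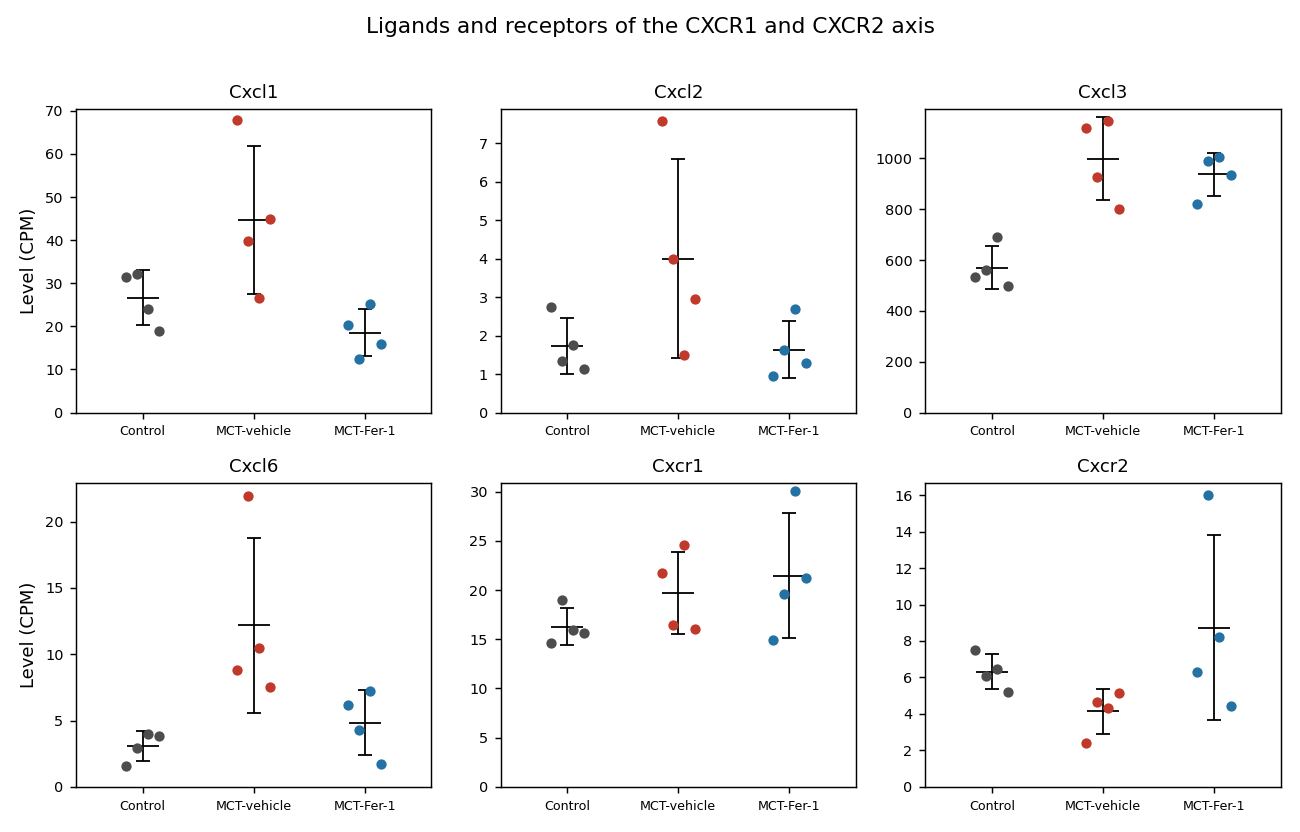
Level in CPM (y axis, from 0) of the 4 neutrophil ligands and the receptors Cxcr1 and Cxcr2 in Control (grey), MCT-vehicle (red) and MCT-Fer-1 (blue). Points are libraries and bars are mean ± SD (n = 4). Cxcl1 and Cxcl6 show MCT-Fer-1 below MCT-vehicle without overlap, whereas Cxcl3 stays at 821 to 1004 CPM in MCT-Fer-1.

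The scavengers Ackr2 and Ackr4 stood nearer Control in MCT-Fer-1 by their group means. This comparison and that of MCT-vehicle against Control share the MCT-vehicle libraries, so their differences are not independent. Ackr2 read 1.21, 1.61, 0.492 and 1.12 CPM in MCT-Fer-1, all below MCT-vehicle (log2 fold change -1.53 ± 0.45, edgeR adjusted p = 0.239). Without MCT-vehicle 2 its log2 fold change was -1.16 ± 0.44. Ackr4 read 8.79, 9.77, 12.9 and 12.7 CPM, all above MCT-vehicle (0.56 ± 0.22, edgeR adjusted p = 0.350) and all below the lowest control. Ccl5 was higher in all 4 MCT-Fer-1 libraries than in any MCT-vehicle library (0.61 ± 0.20, edgeR adjusted p = 0.273).

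Ccl20 in MCT-Fer-1 was at 2.76, 2.17, 3.03 and 1.496 CPM, below the lowest MCT-vehicle value of 3.65 CPM, and its log2 fold change was -1.90 ± 0.62 (edgeR adjusted p = 0.275), or -1.30 ± 0.57 without MCT-vehicle 2. Ccl24 gave -0.73 ± 0.26 (edgeR adjusted p = 0.308). Cxcl13 also lay below MCT-vehicle in every library, at 0.909 to 2.30 CPM, and its -2.19 ± 0.79 became -0.75 ± 0.53 without MCT-vehicle 2. For Ccl19 the value of -1.68 ± 0.81 became 0.13 ± 0.44 without that library. Cx3cl1 was lower than in MCT-vehicle without overlap (-0.53 ± 0.17, edgeR adjusted p = 0.278), further from Control. Monocyte ligands spread within MCT-Fer-1: Ccl2 read 24.9 and 24.8 CPM in libraries 2 and 3 but 9.65 and 7.68 CPM in libraries 1 and 4, and Ccl7 was split in the same way, at 11.6 and 17.7 CPM against 1.64 and 2.95 CPM.

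Besides Ackr4, the members whose calls in MCT-vehicle against Control were kept under all 22 alternatives had overlapping values in the 2 monocrotaline groups. Xcr1 gave -0.17 ± 0.19, Ccl21 -0.42 ± 0.26, Cxcl10 -0.39 ± 0.29, Cxcl3 -0.09 ± 0.13 and Ccl9 -0.52 ± 0.21, with edgeR adjusted p from 0.359 for Ccl9 to 0.813 for Cxcl3. Of members whose calls were not kept throughout, Cxcr3 gave 0.01 ± 0.18, Ccl6 0.17 ± 0.14 and Xcl1 0.43 ± 0.48. Missing the threshold does not show that these levels were alike.

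The comparison of MCT-Fer-1 against Control shares libraries with both comparisons above. In it 9 members rose (19.1%) and 2 fell (4.26%), against 6.67% and 4.12% of all genes, so the share that fell was near that of all genes. Without MCT-vehicle 2 and Control 4, 7 members rose and 2 fell, when 6.39% of all genes were called. With all libraries the groups did not overlap in 21.3% of members, against 19.1% of all genes. The members' median log2 fold change was 0.20 and that of all genes -0.0036. Those that rose were Ccl9 (log2 fold change 1.88 ± 0.22), Xcr1 (1.85 ± 0.20), Xcl1 (2.05 ± 0.53), Cxcl9 (1.53 ± 0.31), Cxcl10 (1.48 ± 0.31), Ccl21 (1.39 ± 0.27), Cxcl3 (0.72 ± 0.13), Ccl6 (0.65 ± 0.14) and Cxcr3 (0.62 ± 0.18). The edgeR adjusted p ran from 1.28e-04 for Xcr1 to 0.0488 for Cxcr3. The falls were Ackr4 with -1.58 ± 0.22 (edgeR adjusted p = 6.66e-04) and Cx3cl1 with -1.08 ± 0.17 (edgeR adjusted p = 0.00199). Cxcl1 gave -0.53 ± 0.29, Cxcl6 0.63 ± 0.47, Ackr2 0.08 ± 0.47, Ccl20 0.30 ± 0.63 and Ccl5 -0.08 ± 0.20, none of them called. The call of Cxcr3 was lost on leaving out any of the 12 libraries (0.05005 to 0.1105), and that of Xcl1 without Control 1, 3 or 4 or MCT-Fer-1 2 (0.0649 to 0.0829). Without both MCT-vehicle 2 and Control 4 edgeR gave 0.0594 for Cxcr3 and 0.0640 for Xcl1, and with limma voom the call of Cxcl9 was lost (0.0730).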

How the data were processed

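Whole-lung RNA of 12 libraries was analysed. The deposited table holds unnormalized counts (raw read counts, per the file headers). The deposited group means are the authors' other values and were not used. The aligner, counting tool, strand setting and build were not given in the sources used here. Groups came from the sample titles.

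All 12 libraries were fitted with 1 coefficient per group in edgeR 4.0.16 (R 4.3.3): filterByExpr (15257 genes kept, 17626 left out), TMM scaling, robust quasi-likelihood test (9 residual degrees of freedom), Benjamini-Hochberg adjustment over all genes, threshold 0.05. CPM use TMM-scaled library sizes. The standard error is the absolute log2 fold change divided by the square root of F. DESeq2 1.42.0 and limma 3.58.1 served as alternatives.

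The members and gene lists were chosen with earlier results of these data known. Of 257 listed symbols 246 matched. 1 gene that met the rule is not reported here. Lists are described by counts called and medians, and marker lists leave out members. Every called member is named, with the genes of its ligand-receptor axis and, for MCT-Fer-1 against MCT-vehicle, the 8 members with the smallest p. From each pathway list up to 4 genes with the smallest p are named. Lcn2, Camp, Fn1, Lyve1, Prox1, Mmrn1, Reln, Clec9a, Cr2, Glycam1, Epx, Prg2, Prg3 and the remaining members outside the rule were named after their values were seen.

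Library pairs of a group differed by more than counting noise, with a chi-square of at least 10.7 per degree of freedom. The alternatives were other size factors, other count filters, DESeq2, limma voom, fits of 2 groups, the replicate number as a block, leaving out libraries and thinning to the smallest total.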

Additional observations from a re-analysis of the deposited data

Results flagged for a closer look

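Among 141 sets of 4 values (47 members in 3 groups), 8 held a library whose gap to the next value, as a share of the group's range, exceeded Dixon's critical value. Chance gives about 1 in 20 such sets. For 3 of them the library was MCT-vehicle 2: Ccl19 at 39.5 CPM, Cxcl13 at 21.4 CPM and Ackr2 at 5.31 CPM, where the other libraries of the group reached 3.73, 2.78 and 2.63 CPM. MCT-Fer-1 2 stood apart for Ccl21 at 380.0 CPM and Xcl1 at 5.02 CPM, against at most 204 and 1.90 CPM in the rest of its group. Control 3 stood apart for Ccl5 at 98.2 CPM and Cx3cr1 at 12.1 CPM, against at most 62.6 and 7.86 CPM. Cxcr3 was low in MCT-Fer-1 3 at 5.52 CPM, where the others lay between 6.59 and 6.72 CPM.

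Among genes below the count rule, Ccl1, a ligand of CCR8, had 0 counts in all 4 Control libraries. It had 1, 5, 5 and 2 counts in MCT-vehicle, a mean of 0.187 CPM, and 2, 0, 10 and 3 counts in MCT-Fer-1. A count of 0 in a Control library allows up to 0.165 to 0.181 CPM, so this is at the limit of detection, and it was not tested.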

How the results depend on the processing

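The count of members called in MCT-vehicle against Control was 19, when 18.6% of all genes were called. The DESeq2 Wald test called 23 members (23.1% of all genes), with Ccl3, Cx3cr1, Cxcl1 and Cxcl13 in addition. The count was 12 with no filter on low counts (11.6% of all genes) and 8 without MCT-vehicle 2 and Control 4 (10.9%). It ran from 9 to 18 on leaving out each of the 12 libraries (13.1% to 18.5% of all genes). In MCT-Fer-1 against MCT-vehicle it was 0 under every alternative but the DESeq2 Wald test, which called 1. In MCT-Fer-1 against Control it was 11 (10.8% of all genes), and 9 to 12 under the alternatives (6.34% to 15.6% of all genes). Of 38 results for single members, 21 kept their side of the threshold under every alternative, 17 did not, and 0 reversed. The causes of these changes were not tested. With the replicate number as a replicate block, 16, 0 and 11 members were called, beside 18.4%, 0% and 11% of all genes. Same-numbered libraries of different groups correlated in their deviations between -0.0926 and 0.133, and 4 of 12 libraries correlated best with their own number, so the numbers were not taken as pairs. Thinning to 11601929 counts per library left 46 members tested and 15 called in the first comparison (17.9% of all genes). With this thinning Cxcl11 was not tested, and the calls of Ccl12, Ccl24 and Xcl1 were lost (edgeR adjusted p = 0.0530, 0.0849 and 0.0888). Ackr2 kept its call. Control values of Cxcl11, Xcl1, Ackr2 and Ccr4 lay at or below 1.76 CPM.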
